A study of Mus musculus with 24 samples.

Results

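The livers of newborn mice whose dams had eaten a low protein diet through pregnancy were compared with those of newborns whose dams had eaten a normal protein diet, with no taurine given to either. The comparison used 6 of the 12 liver arrays, out of 24 arrays in all: 3 low protein (LP, 8% casein) and 3 normal protein (NP, 20% casein). All pups were C57BL/6 mice killed on the day of birth (day 0), and the diets ran from day 1 of pregnancy until birth. The remaining liver arrays came from pups whose dams drank water with 1% taurine on either diet (NPtau and LPtau, 3 arrays each), and 12 further arrays measured hindleg muscle under these 4 schemes. The labels call the arrays of a group biological replicates and do not say whether they came from separate dams, so p-values measure the spread between these arrays. Each gene was read from a single probe set, the brightest over the liver arrays among those with a single gene symbol, which gave 18193 genes. Values are on the log2 scale of the deposited array summary (RMA), on which a difference of 1 is a doubling. Every difference is LP minus NP, is given ± its standard error (SE) from limma, a linear model fitted over all genes and the 12 liver arrays, and rests on 3 arrays per group. A gene is said to have risen or fallen where its limma p, adjusted over all 18193 genes by Benjamini-Hochberg, was below 0.05.

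At birth the mouse liver takes over from the placenta: it begins to make glucose, burns amino acids and fat, and matures as a detoxifying organ, while it still makes blood cells. Amino acids in excess of need are stripped of nitrogen, which the urea cycle clears, and their carbon enters the mitochondria. The enzymes of these pathways are mostly liver enzymes whose messenger RNA levels follow diet and hormones in the adult.

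The livers of LP newborns held more messenger RNA for enzymes that break down amino acids and for glutathione S-transferases. They held less for single genes of fatty acid synthesis (Acss2, Fads2, Elovl2 and Me1), while fatty acid synthase itself did not pass. Single members of the sulfotransferase and cytochrome P450 families went both ways: Sult2a2, Sult1a1, Cyp2f2 and Cyp2a12 rose, and Sult3a1 and Cyp2j5 fell. Lectins of the complement system, markers of B cell precursors and some endothelial and cell division genes were also lower. So were 4 of 30 cAMP-responsive genes, but the median of that list moved from -0.21 to -0.02 without 1 of the LP arrays. The largest rise was that of Sult2a2, a sulfotransferase of steroids and bile acids, at 21.5-fold, from NP values that spread widely. The largest fall was that of Rab30, a small GTPase of the Golgi, at 9.36-fold, from a probe set that can match more than 1 transcript.

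In all, 425 of 18193 genes passed the test (2.34%), of which 202 rose (1.11%) and 223 fell (1.23%). Without adjustment 4125 genes (22.7%) had p below 0.05. Among the 425 genes, 62 rose and 112 fell by more than 2-fold, and 10 rose and 17 fell by more than 4-fold. The median change was 0.74 among those that rose and -1.01 among those that fell. Over all genes the median difference was 0.05, and 58.5% of differences were positive. That share depended on the level: it was 44.6% above the median level, with a median difference of -0.05, and 72.4% at or below it, with a median of 0.11. The values of LP and NP arrays did not overlap in 5316 genes (29.2%): all LP arrays lay above all NP arrays in 3332 (18.3%) and below them in 1984 (10.9%). With 3 arrays per group an exact permutation test of a single gene cannot go below p = 0.1. Of the 425 genes, 89 were on at least 1 of 66 lists of pathways, gene families and cell type markers that together held 1429 measured genes, and 336 were on none. Counts in a list are to be read against the 2.34% called over all genes.

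**Figure D1:**
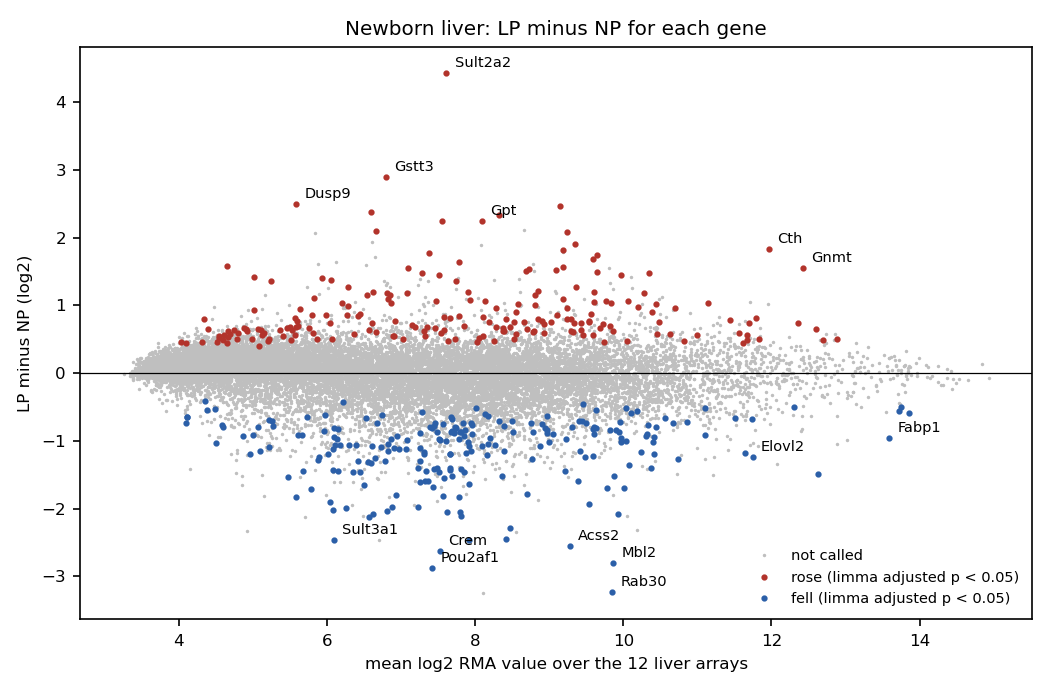
Each point is a gene, with its mean log2 value over the 12 liver arrays on the x axis and its LP minus NP difference (log2) on the y axis. Red points are the 202 genes that rose and blue points the 223 that fell. Sult2a2 at 4.43 and Rab30 at -3.23 lie at the ends of the coloured points.

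A single LP array stood apart from the rest. LP replicate 1 differed from LP replicates 2 and 3 by a median of 0.22 and 0.24 (absolute log2 difference over genes), with 835 and 1042 genes more than 2-fold apart, whereas replicates 2 and 3 differed by 0.14 and had 29 such genes. The 3 pairs of NP arrays differed by 0.14 to 0.16, with 187 to 313 such genes. Without LP replicate 1, 2013 of the 18193 genes passed (919 rose and 1094 fell), 424 of the 425 among them. Counts of a list without that array, given below, are to be read against these and not against the 425. Without NP replicate 1, 2 or 3 the count was 21, 181 and 48, and without LP replicate 2 or 3 it was 30 and 29, so the calls rest on each of the other arrays. The 114 genes that rose or fell and are named in the text kept their direction with any single array left out, and without LP replicate 1 all 114 still passed. Without NP replicate 1, 2 or 3, 18, 64 and 27 of the 114 passed, and without LP replicate 2 or 3, 23 and 20 did. From Xist and Y-linked genes, 2 of 3 LP arrays and 1 of 3 NP arrays came from females. With sex in the model 244 genes passed, 229 of the 425 among them.

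Breakdown of amino acids was the list with the most changed genes by count: 17 of its 59 measured genes rose (28.8%) and none fell. Over all genes 2.34% passed. By share called, B cell precursors (38.9%) and glutathione S-transferases (29.2%) came before it. The median difference of amino acid breakdown was 0.46, and 50 of 59 differences were positive. All LP arrays lay above all NP arrays for 34 of 59 genes, against 18.3% of all genes. The list was written with some of these rises already known, so its count is a description. The mean of the list on each array, set against the mean of the NP arrays, was -0.19, 0.15 and 0.04 on the NP arrays and 0.61, 0.52 and 0.46 on the LP arrays, which did not overlap. With LP replicate 1 left out, 22 genes rose and 2 fell; without NP replicate 2, 10 rose; and without any of the other 4 arrays, 2 rose.

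In the breakdown of glycine, serine and methionine 6 of 13 measured genes rose, with a median of 0.67. Gnmt, glycine N-methyltransferase, which uses up excess methyl groups, read 11.46, 12.16 and 11.73 on the NP arrays and 13.46, 13.30 and 13.24 on the LP arrays. The groups lay apart, and it rose by 1.55 ± 0.25 (limma adjusted p = 0.0175). Cth, cystathionine gamma-lyase, which completes the conversion of methionine sulfur to cysteine, read 10.84, 11.52 and 11.03 against 13.39, 12.64 and 12.83. It rose by 1.82 ± 0.37 (limma adjusted p = 0.0366). Gldc, the decarboxylase of the glycine cleavage system, read 8.41, 9.04 and 9.20 against 10.48, 10.68 and 10.55, and rose by 1.69 ± 0.28. Shmt1, the cytosolic enzyme that interconverts serine and glycine, rose by 1.49 ± 0.24, with 4 of 4 probe sets higher. Sardh, which oxidises the sarcosine that Gnmt makes, rose by 1.04 ± 0.24, and Ahcy, which clears S-adenosylhomocysteine, by 0.66 ± 0.14. The NP arrays of all 6 genes lay below their LP arrays, and NP replicate 1 was the lowest array for Gnmt, Cth, Gldc, Shmt1 and Sardh.

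The enzymes that take branched-chain amino acids apart formed the next group, with 6 of 14 genes that rose, 13 of 14 differences positive and a median of 0.46. Branched-chain keto acid dehydrogenase, which commits leucine, isoleucine and valine to oxidation, had changes in 2 of its subunits. Dbt, its core transacylase, read 8.94, 9.37 and 9.08 on the NP arrays and 10.16, 10.37 and 10.44 on the LP arrays, and rose by 1.19 ± 0.20 (limma adjusted p = 0.0182). Bckdhb, a subunit of its decarboxylase, read 9.73, 10.22 and 10.04 against 11.03, 10.97 and 11.08, and rose by 1.03 ± 0.17. In both genes the LP arrays lay closer together than the NP arrays. On the leucine branch Ivd rose by 1.06 ± 0.22 and Mccc1 by 0.60 ± 0.14. On the valine branch Hibadh rose by 0.56 ± 0.13 and Hibch by 0.61 ± 0.14. The probe sets of Hibadh and Hibch can match more than 1 transcript, and the other probe set of Hibch gave -0.004.

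Among the remaining amino acids the rises fell on single enzymes. Gpt, alanine aminotransferase, which moves nitrogen between alanine and glutamate, read 7.0, 7.65 and 7.09 on the NP arrays and 9.30, 9.75 and 9.43 on the LP arrays. That is a rise of 2.24 ± 0.23 (limma adjusted p = 0.00376), from a probe set that can match more than 1 transcript; the other probe set of Gpt gave a smaller rise of 0.55 (limma adjusted p = 0.0391). Hal, which removes ammonia from histidine, read 8.31, 8.33 and 7.92 against 9.80, 9.79 and 9.58, and rose by 1.54 ± 0.16. Ftcd, which passes the last histidine carbon to folate, rose by 1.04 ± 0.23. Prodh, which opens proline breakdown in the mitochondria, rose by 1.20 ± 0.19, and Gcdh, on the lysine and tryptophan route, by 1.04 ± 0.19. None of the 10 measured genes for phenylalanine, tyrosine and tryptophan passed, although all 10 differences were positive, with a median of 0.30. These subgroups were drawn after the values were seen.

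**Figure D2:**
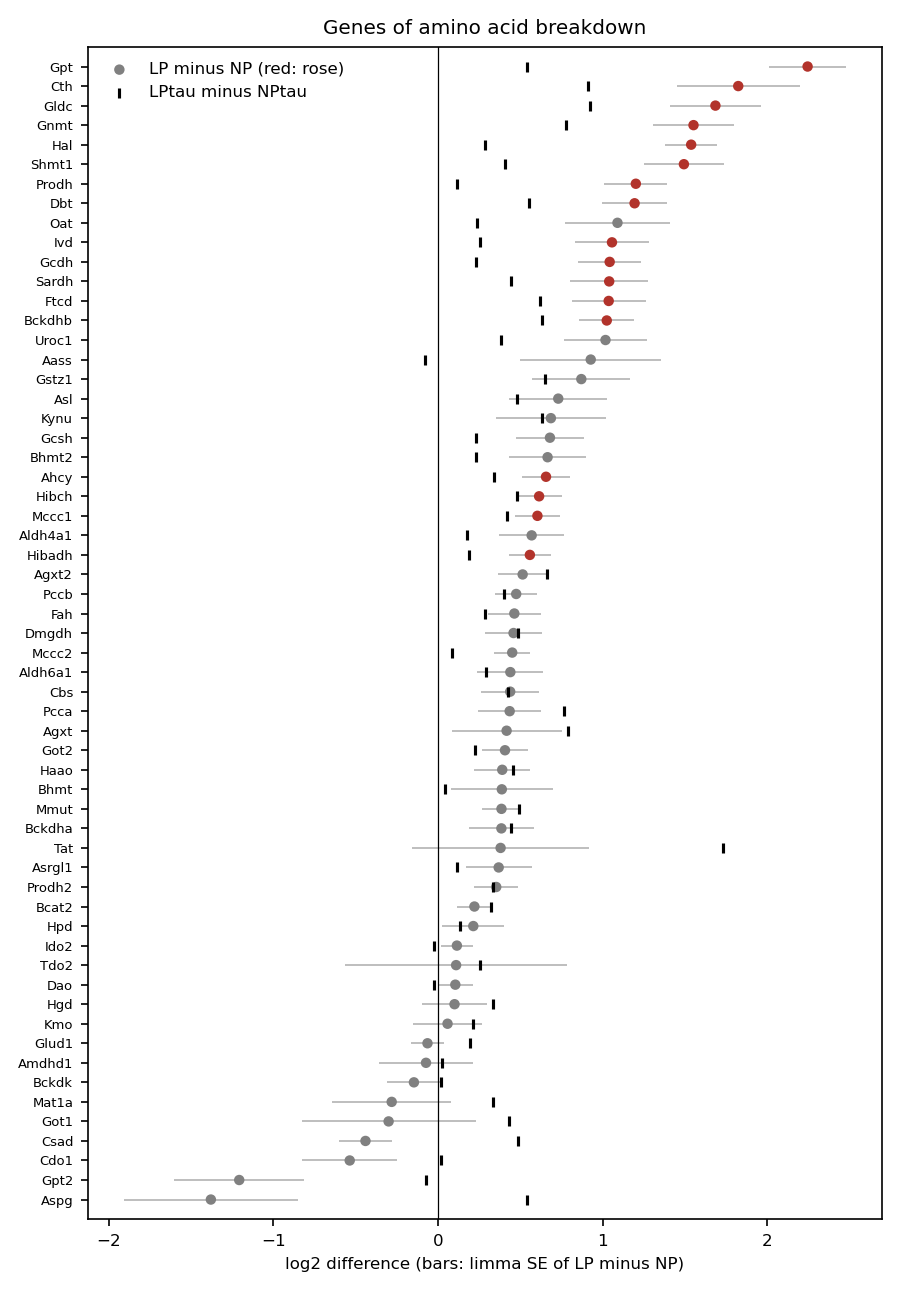
The LP minus NP difference (log2, x axis) of each of the 59 measured genes of amino acid breakdown, with its limma SE as a bar; red points are the 17 genes that rose. Black ticks show LPtau minus NPtau for the same genes, positive for 55 of 59.

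Taurine and sulfur amino acid metabolism, 21 measured genes, had 3 that rose, Cth, Gnmt and Ahcy, and 1 that fell. The gene that fell was Ado, a thiol dioxygenase that oxidises cysteamine to hypotaurine, at -1.13 ± 0.26, with 2 of its 4 probe sets of the same sign and a mean over all 4 of -0.29 that did not pass. The enzymes that make taurine from cysteine did not pass. Cdo1, cysteine dioxygenase, read 12.05, 12.33 and 11.92 on the NP arrays and 12.25, 11.28 and 11.16 on the LP arrays, and Csad, cysteine sulfinate decarboxylase, had a difference of -0.44 ± 0.16. For both genes the groups overlapped. Slc6a6, the taurine transporter, differed by 0.68 ± 0.30 (limma adjusted p = 0.208).

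None of the 12 measured genes of the urea cycle and ammonia handling passed. Cps1, its entry enzyme, differed by -0.03 ± 0.15, and Asl, argininosuccinate lyase, which had the lowest p of the list, by 0.73 ± 0.30 (limma adjusted p = 0.182). Genes that the transcription factor ATF4 switches on when amino acids are scarce were also without a rise: of 29 measured, 1 fell and none rose, and the median was -0.15. The gene that fell was Nupr1, a small stress-induced nuclear protein, at -2.0 ± 0.38, read from a probe set that can match other transcripts. Asns, asparagine synthetase, a standard ATF4 target, read 11.36, 11.09 and 11.20 on the NP arrays and 11.01, 11.22 and 11.38 on the LP arrays, a difference of -0.01 ± 0.12. None of 19 cytosolic tRNA synthetases and none of 31 amino acid transporters passed; the lowest p among the transporters was that of Slc38a2, at -0.86 ± 0.23 (limma adjusted p = 0.0757).

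Gluconeogenesis and glycogen had 19 measured genes, of which 3 fell and 1 rose, with a median of -0.52 and 15 of 19 differences negative. Fbp1, fructose bisphosphatase of gluconeogenesis, fell from 13.76, 14.03 and 13.90 to 13.23, 13.48 and 13.33, a difference of -0.55 ± 0.11 (limma adjusted p = 0.0325). Gys2, liver glycogen synthase, fell by 0.52 ± 0.12. Of the enzymes that handle fructose, Tkfc, a triose kinase, changed by -0.86 ± 0.14, while Khk, ketohexokinase, rose by 0.68 ± 0.10. The rate-setting genes of glucose output did not pass and were set apart by a single array. Pck1 read 12.24, 12.47 and 12.75 on the NP arrays and 10.74, 12.49 and 12.53 on the LP arrays, and G6pc read 13.18, 13.41 and 13.36 against 10.70, 13.04 and 13.08. In both genes LP replicate 1 was more than 2-fold below every other array of the comparison. Pdk4, which blocks pyruvate oxidation on fasting, had the same shape, at 8.76 on LP replicate 1 against 10.73 and 10.96 on the other LP arrays. Without LP replicate 1 the list median was -0.26, with 1 gene that rose and 4 that fell, and without any other single array at most 1 rose and 1 fell.

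Genes that respond to cAMP and fasting had 4 of 30 that fell and none that rose. Rab30 read 11.34, 11.40 and 10.64 on the NP arrays and 7.88, 8.00 and 7.82 on the LP arrays. The LP arrays lay close together, and the change was -3.23 ± 0.52 (limma adjusted p = 0.0175). Without probe sets that can match more than 1 transcript Rab30 gave -1.82 and did not pass (limma adjusted p = 0.135). Crem, the cAMP-responsive modulator, a transcription factor with repressor and activator forms, read 8.51, 8.11 and 8.73 against 6.61, 5.19 and 5.68, a fall of -2.62 ± 0.54, with 4 of 4 probe sets lower and a mean over them of -1.17. Sgk1, a kinase induced by glucocorticoids, read 11.35, 11.04 and 11.16 against 9.11, 10.03 and 10.21, a fall of -1.40 ± 0.29. Fosl2, an AP-1 subunit, changed by -1.40 ± 0.29, and the other of its 2 probe sets had the opposite sign. Ppargc1a, the coactivator of the fasting response, differed by -0.18 ± 0.64 and overlapped widely. The list's mean was lowest on LP replicate 1, at -0.73 against -0.28 and -0.29 on LP replicates 2 and 3 and -0.10 to 0.16 on the NP arrays. Without LP replicate 1 the list median moved from -0.21 to -0.02, with 6 genes that fell and 1 that rose; without NP replicate 2, 2 fell, and without any of the other 4 arrays none passed.

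**Figure D3:**
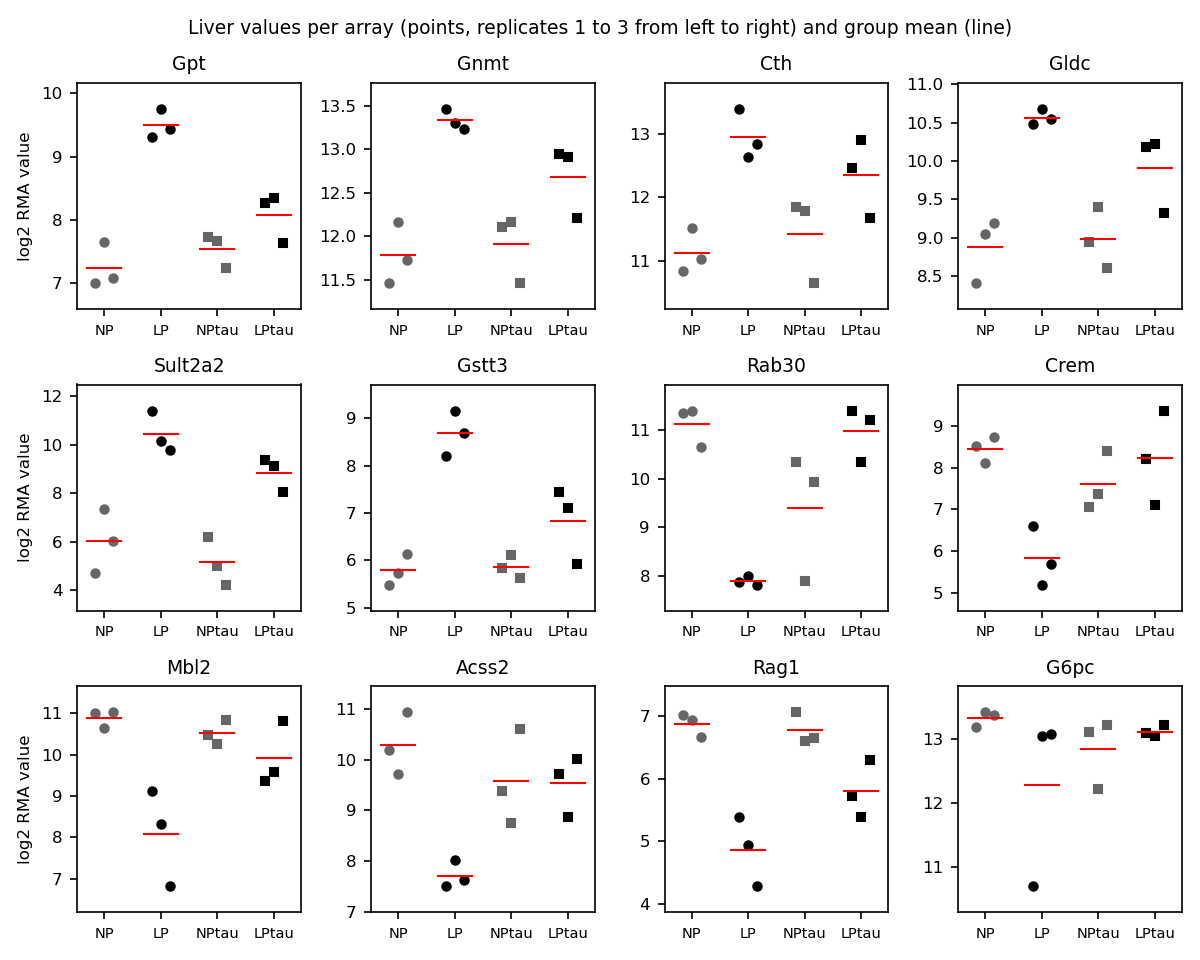
Log2 RMA values (y axis) of 12 genes on each liver array, by maternal diet (x axis: NP, LP, NPtau, LPtau), with replicates 1 to 3 from left to right and the group mean as a red line. The LP and NP arrays do not overlap in any of the 12 genes; for G6pc, the gene shown that did not pass, LP replicate 1 reads 10.70 against 13.04 and 13.08 on the other LP arrays.

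Fatty acid and triglyceride synthesis had 4 of 32 measured genes that fell and none that rose; 25 of 32 differences were negative and the median was -0.21. Acss2, which activates acetate in the cytosol, read 10.19, 9.72 and 10.93 on the NP arrays and 7.51, 8.03 and 7.63 on the LP arrays. It fell by 2.56 ± 0.45 on the log2 scale (limma adjusted p = 0.0236), and 2 of its 3 probe sets had that sign. Fads2, the desaturase that opens the synthesis of long polyunsaturated fatty acids, averaged 10.31 ± 0.60 (SD, n = 3) on the NP arrays and 8.61 ± 0.16 on the LP arrays without overlap, a change of -1.70 ± 0.36. Elovl2, an elongase later on that route, read 12.20, 12.15 and 12.35 against 11.18, 10.98 and 10.81, a change of -1.24 ± 0.18. Me1, malic enzyme, a source of NADPH, changed by -1.40 ± 0.27. Scd1, the desaturase that makes monounsaturated fat, read 10.87, 10.62 and 11.65 against 7.49, 9.55 and 9.17; its difference of -2.31 ± 0.54 did not pass (limma adjusted p = 0.0516). Fasn, fatty acid synthase, differed by -0.12 ± 0.33 and Srebf1, the transcription factor that drives the pathway, by 0.54 ± 0.51. When LP replicate 1 was left out, 5 of the list fell, without NP replicate 2 2 fell, and without any of the other 4 arrays none did.

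None of the 20 measured genes of cholesterol synthesis and uptake passed. Their median was -0.32, and -0.12 without LP replicate 1. The list mean varied among the NP arrays themselves, at 0.16, -0.54 and 0.38, while the LP arrays gave -0.82, -0.06 and -0.08, so the groups overlapped. Mvk, mevalonate kinase, had the lowest p and went the other way, at 0.73 ± 0.22 (limma adjusted p = 0.0953). In bile acid synthesis and transport 1 of 26 genes fell. It was Cyp8b1, the sterol hydroxylase that directs synthesis to cholic acid, which read 10.18, 10.90 and 10.88 on the NP arrays and 9.05, 8.66 and 8.01 on the LP arrays, a change of -2.08 ± 0.36 (limma adjusted p = 0.0227). Cyp7a1, the rate-limiting enzyme of bile acid synthesis, read 9.27, 11.02 and 11.21 against 10.88, 10.04 and 9.79, with overlapping groups. Of 34 genes of fatty acid oxidation and ketone synthesis 2 rose and 1 fell. Etfb, an electron carrier for acyl-CoA dehydrogenases, rose by 0.49 ± 0.11, Acot4, a peroxisomal thioesterase, rose by 1.09 ± 0.23, and Fabp1, the abundant liver fatty acid binding protein, changed by -0.96 ± 0.21. Cpt1a, which gates the entry of fatty acids to mitochondria, differed by 0.20 ± 0.26. None of 24 genes of apolipoproteins and lipoprotein handling passed; Pltp, a phospholipid transfer protein, had the lowest p, at -1.05 ± 0.34.

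Differences for subunits of complexes I, II and III and of the ATP synthase were mostly positive and small, with few single calls. Of 33 measured subunits of complex I, which takes electrons from NADH, 32 had positive differences, with a median of 0.31. All LP arrays lay above all NP arrays for 22 of the 33, against 18.3% of all genes. The subunit that passed was Ndufv2, at 0.56 ± 0.12 (limma adjusted p = 0.0409). In complexes II and III 14 of 15 differences were positive, with a median of 0.37; none passed, and Uqcr10 had the lowest p, at 0.77 ± 0.18 (limma adjusted p = 0.0524) a sign that 1 of its 3 probe sets shared. Cox15, a haem a synthase needed for complex IV, rose by 0.61 ± 0.14, the sole call of 17 genes of complex IV, from a probe set that can match other transcripts. For complex IV 11 of 17 differences were positive, with a median of 0.16, and the list's mean on LP replicate 3, at 0.03, lay within the range of the NP arrays. In the ATP synthase 14 of 16 differences were positive, and Atp5a1 rose by 0.49 ± 0.09, the sole call, a sign shared by 2 of 3 probe sets. Mdh1, cytosolic malate dehydrogenase, rose by 0.73 ± 0.15, the sole call of 22 genes of the TCA cycle and pyruvate oxidation. Of 76 mitochondrial ribosomal proteins 60 had positive differences, and Mrps35 and Mrpl20 rose, by 0.75 ± 0.12 and 0.60 ± 0.12. These calls made up 2.63% of that list, near the 2.34% of all genes. The complex I mean read -0.16, 0.15 and 0.01 on the NP arrays and 0.35, 0.34 and 0.31 on the LP arrays, so LP replicate 1 did not stand apart here. Without it 5 complex I subunits rose, and without NP replicate 1 or LP replicate 2 or 3 no gene of these mitochondrial lists passed. Cytosolic ribosomal proteins had 32 of 43 positive differences, with a median of 0.09, and proteasome subunits 28 of 39, with a median of 0.11; none of either list passed. Of 42 translation initiation factors 1 fell and none rose (2.38%, against 2.34% of all genes). It was Eif4g2, which read 12.73, 12.49 and 12.63 on the NP arrays and 12.25, 12.06 and 12.04 on the LP arrays, a change of -0.50 ± 0.11 (limma adjusted p = 0.0493), from a probe set that can match more than 1 transcript. The mean over its 5 probe sets was -0.02 (limma adjusted p = 0.938).

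Glutathione S-transferases, which couple reactive compounds to glutathione, had 7 of 24 members that rose and none that fell, with a median of 0.26. Gstt3, of the theta class, read 5.49, 5.75 and 6.14 on the NP arrays and 8.21, 9.16 and 8.69 on the LP arrays. This was a rise of 2.90 ± 0.36, or 7.44-fold (limma adjusted p = 0.00786). Gsta2, of the alpha class, read 4.08, 4.34 and 4.14 against 6.60, 5.39 and 5.33, a rise of 1.59 ± 0.28 from values near the floor of the arrays. Its sole probe set can match more than 1 transcript. Gsta4 rose by 1.45 ± 0.31, Gstk1 by 1.06 ± 0.23, Gsto1 by 0.97 ± 0.21, Mgst2 by 0.95 ± 0.17 and Gstt2 by 0.70 ± 0.15. The calls thus covered the alpha, theta, kappa and omega classes and a microsomal enzyme. Without LP replicate 1, 8 members rose; without NP replicate 2 or 3 the count was 3 and 2, and without NP replicate 1 or LP replicate 2 or 3 it was 1. Members of this family resemble one another in sequence, so a probe set of a member may also read another.

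Sulfotransferases had 2 of 13 members that rose and 1 that fell, with the largest changes of the family in Sult2a2 and Sult3a1. Sult2a2 read 4.69, 7.34 and 6.01 on the NP arrays and 11.40, 10.13 and 9.79 on the LP arrays. Every LP array stood far above every NP array, and it rose by 4.43 ± 0.69 (limma adjusted p = 0.0172). The NP values spread widely (SD 1.33), and NP replicate 1 lay below the median of all probe sets on its array (5.36). The size of the rise is therefore uncertain. Sult3a1, an amine sulfotransferase, read 6.90, 6.74 and 6.54 against 4.37, 4.46 and 3.97, a change of -2.46 ± 0.34 to near the floor of the arrays. Sult1a1, a phenol sulfotransferase, rose by 0.81 ± 0.16. Of 55 cytochrome P450 genes of families 1 to 4, 2 rose and 1 fell. Cyp2f2 read 8.86, 7.13 and 8.03 against 11.06, 10.44 and 9.88, a rise of 2.46 ± 0.49, and Cyp2a12 rose by 1.48 ± 0.26. The sole probe set of Cyp2f2 can match more than 1 transcript. Cyp2j5, an arachidonic acid epoxygenase, read 8.15, 8.12 and 8.72 against 6.99, 6.12 and 5.75, a change of -2.04 ± 0.30. The P450 list as a whole had a median of -0.03. Akr1c6, an aldo-keto reductase that handles steroids, read 9.01, 8.34 and 9.22 against 6.03, 6.51 and 6.67, a change of -2.45 ± 0.40, and it was the sole call of 14 in that family. None of 10 UDP-glucuronosyltransferases and none of 13 carboxylesterases passed; Ugt2b35 differed by 0.87 ± 0.27 and Ces2a by 0.66 ± 0.18. Without LP replicate 2 or 3 or NP replicate 1 no more than 1 gene of the sulfotransferases, and no more than 1 of the P450 families, passed.

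Genes of the NRF2 and oxidative stress response moved both ways, with 2 of 23 that rose and 1 that fell. Sod2, mitochondrial superoxide dismutase, rose by 0.57 ± 0.11, and Gsta2 by the amount given above. Ephx1, microsomal epoxide hydrolase, read 8.49, 8.48 and 9.11 on the NP arrays and 7.74, 7.63 and 7.27 on the LP arrays, a change of -1.14 ± 0.24. Cat, catalase, differed by -0.56 ± 0.17 (limma adjusted p = 0.0959). In peroxisome biogenesis 2 of 15 genes rose: Pex7, the import receptor for a subset of matrix enzymes, by 0.66 ± 0.11, and Pex5, the main import receptor, by 0.46 ± 0.11. None of 23 endoplasmic reticulum chaperones and none of 13 heat shock genes passed; the genes with the lowest p were Pdia6, at 0.39 ± 0.14, and Hsp90aa1, at -0.60 ± 0.16.

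Hormone systems of growth and metabolism showed few calls. None of 24 genes of the insulin-like growth factor axis passed. Igf1 read 8.40, 7.70 and 8.56 on the NP arrays and 7.22, 7.16 and 7.22 on the LP arrays. The groups did not overlap, and its difference was -1.02 ± 0.31 (limma adjusted p = 0.103). Igf2, the fetal growth factor, differed by 0.20 ± 0.10 and Igfbp1, a binding protein of the fasting response, by -0.23 ± 0.09. Of 13 genes of thyroid hormone carriers, receptors and targets 2 fell: Me1 and Serpina7. Serpina7, thyroxine-binding globulin, read 10.34, 10.24 and 9.89 against 8.11, 8.20 and 8.37, a change of -1.93 ± 0.22 (limma adjusted p = 0.00497). Of 22 glucocorticoid-responsive genes Sult1a1 rose and Sgk1 fell. Dusp9, a phosphatase that switches off ERK, read 4.78, 4.61 and 4.49 against 7.72, 6.47 and 7.17, a rise of 2.49 ± 0.26 with 3 of 3 probe sets higher. Its NP values lay below the median of all probe sets on their arrays (5.36 to 5.38), near the floor, so the size of the rise is uncertain. Dusp2, another of the 11 MAP kinase phosphatases, changed by -0.80 ± 0.14. In the circadian clock 2 of 18 genes rose. Tef, a transcription factor of the clock's output, read 8.75, 8.08 and 8.65 against 9.79, 9.69 and 9.45, a rise of 1.15 ± 0.20, and Per3 rose by 0.68 ± 0.09 with 6 of 6 probe sets higher.

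The stretches of 250 bases before the start sites of Sgk1 and Tef are shown because these genes belong to hormone- and clock-driven lists, and that of H2-Aa because it fell and holds the element read by the CREM family. They were picked after motif matches were seen, among named genes that rose or fell. Sequences are from RefSeq on GRCm38.p6, 5′ to 3′, with the motif in capitals. For Sgk1 the strand is plus and the window is chr10:21993640-21993889, with a glucocorticoid response element (the blocks AGAACA and TGTTCT with any 3 bases between them) that starts 189 bases before the start site. For Tef the strand is plus and the window is chr15:81802423-81802672, with an E-box (CACGTG), the element bound by CLOCK and BMAL1, that starts 127 bases before. A further start site of Tef, with the window chr15:81811164-81811413 on the plus strand, has an E-box 138 bases before it and is not printed. For H2-Aa the strand is minus and the window is chr17:34287824-34288073, with a cAMP response element (TGACGTCA) that starts 74 bases before.
Sgk1: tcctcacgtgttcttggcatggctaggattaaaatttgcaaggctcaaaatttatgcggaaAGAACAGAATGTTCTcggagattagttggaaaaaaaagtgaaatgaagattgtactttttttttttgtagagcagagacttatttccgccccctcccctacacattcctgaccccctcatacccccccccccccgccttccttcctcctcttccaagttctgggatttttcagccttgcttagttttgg
Tef: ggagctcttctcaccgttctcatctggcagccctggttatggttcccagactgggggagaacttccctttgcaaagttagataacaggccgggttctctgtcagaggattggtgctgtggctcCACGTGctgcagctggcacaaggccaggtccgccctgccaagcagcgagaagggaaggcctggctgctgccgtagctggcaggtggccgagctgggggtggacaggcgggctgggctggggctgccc
H2-Aa: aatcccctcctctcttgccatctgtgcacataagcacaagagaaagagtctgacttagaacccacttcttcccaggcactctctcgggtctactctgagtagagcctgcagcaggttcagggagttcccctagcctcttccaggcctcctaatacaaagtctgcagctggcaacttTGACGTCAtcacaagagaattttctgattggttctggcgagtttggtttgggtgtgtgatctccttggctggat

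Over the 14368 measured genes with such windows in RefSeq, searched on both strands, the cAMP response element was present for 2.51%, against 0.0% of 161 genes that rose and 2.42% of 165 that fell. The E-box was present for 8.74%, against 9.32% and 10.3%. The glucocorticoid response element was present in 2 genes of all, of which Sgk1 was the one that fell. The sterol response element (TCACNCCAC) was present for 1.25%, against 3.11% and 2.42%, and the AP-1 site (TGACTCA) for 4.73%, against 6.83% and 3.64%. A match describes these letters in this window and does not show a site in use.

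Among secreted liver proteins, 3 of 23 genes of the complement and lectin pathway fell, the lectins Mbl2 and Mbl1 among them, and none rose. The list as a whole had a median of -0.07, with 11 of 23 differences positive. Mbl2, a mannose-binding lectin, read 11.02, 10.64 and 11.03 on the NP arrays and 9.12, 8.33 and 6.82 on the LP arrays. The LP arrays spread widely but all lay below the NP arrays, and the change was -2.81 ± 0.51 (limma adjusted p = 0.0245). Mbl1, its paralog, read 9.32, 9.67 and 9.97 against 7.49, 8.65 and 8.47, a change of -1.45 ± 0.33. C4bp, which restrains C4b, changed by -1.98 ± 0.39. With LP replicate 1 left out, 4 genes of this list fell and 1 rose, and without any other single array none passed. Itih1, a hyaluronan-binding protein, was the sole call among 30 acute phase and carrier proteins (3.33%, against 2.34% of all genes), at -0.79 ± 0.13. None of 24 coagulation genes passed; the lowest p was that of F8, at -0.78 ± 0.19. The hepatocyte products Alb and Afp were near the top of the scale on all arrays, at 14.96 to 14.97 and 14.69 to 14.74 on the NP arrays and 14.88 to 14.89 and 14.54 to 14.66 on the LP arrays, as the tissue label requires. The median of 12 hepatocyte markers was -0.05, and that of 25 hepatocyte transcription factors -0.13, with none passing; Hnf4a differed by -0.10 ± 0.22. Of 24 genes that rise as hepatocytes mature, 2 rose, Aldh1b1 by 1.52 ± 0.30 and Sult1a1, and 2 fell, Cyp8b1 and Car3. Car3, a carbonic anhydrase, read 8.80, 8.10 and 9.32 against 6.24, 6.53 and 6.05, a change of -2.47 ± 0.47, a sign that 2 of its 4 probe sets had.

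Genes of cell division were mostly lower. Of 59 measured genes of the cell cycle and DNA replication 53 had negative differences, the median was -0.42, and 3 fell. Ccne2, cyclin E2 of the entry to DNA synthesis, read 8.38, 8.04 and 8.04 on the NP arrays and 6.86, 6.48 and 6.35 on the LP arrays, a change of -1.59 ± 0.20 (limma adjusted p = 0.00786). E2f7, an E2F repressor, changed by -1.46 ± 0.32, and Ect2, an exchange factor needed for cytokinesis, by -1.46 ± 0.28. Also, 2 genes outside the list that serve the same phase were among the smallest p-values. Dck, deoxycytidine kinase, read 11.02, 10.47 and 10.64 against 9.46, 9.45 and 9.18, a change of -1.35 ± 0.17. Npat, which drives histone gene transcription, changed by -1.10 ± 0.11, although the other of its 2 probe sets had the opposite sign. Cdkn1b, an inhibitor of cyclin-dependent kinases, also differed downward, by -0.76 ± 0.18, without passing (limma adjusted p = 0.0536). When LP replicate 1 was left out, 7 genes of the cell cycle list fell, without NP replicate 2 it was 2, and without any of the other 4 arrays 1. Newborn liver holds dividing hepatocytes and dividing blood precursors, and bulk RNA does not tell fewer cells of a type from less RNA per cell; this holds for every cell type described here.

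Markers of B cell precursors, which the fetal liver makes until the bone marrow takes over, had the lowest median of all lists, at -1.06: 7 of 18 fell and none rose. Rag1, of the recombinase that cuts immunoglobulin genes, read 7.02, 6.95 and 6.67 on the NP arrays and 5.38, 4.94 and 4.28 on the LP arrays, a change of -2.01 ± 0.28 (limma adjusted p = 0.0114). Pou2af1, a B cell coactivator, read 8.68, 8.25 and 8.29 against 6.54, 5.24 and 4.82, a change of -2.87 ± 0.54. Il7r, the receptor for the cytokine that sustains B cell precursors, read 7.53, 7.46 and 7.39 against 5.79, 5.22 and 5.13, a change of -2.08 ± 0.37. In each of the 3 genes LP replicate 1 was the LP array nearest to the NP arrays. Ebf1, which commits cells to the lineage, changed by -1.90 ± 0.29, and Blnk, an adaptor of the receptor, by -1.79 ± 0.40. Cd79b, a signalling chain of the receptor, changed by -1.55 ± 0.33, and Vpreb3, a further marker of the list, by -1.07 ± 0.23. The list's mean lay at -0.99, -1.06 and -1.30 on the LP arrays and between -0.03 and 0.06 on the NP arrays. Outside the list, H2-Aa, of class II antigen presentation, read 6.96, 7.16 and 7.47 against 5.18, 5.29 and 4.75 and Bach2, a B cell transcription factor, 9.73, 8.50 and 9.43 against 6.67, 7.11 and 7.02. H2-Aa was read from a probe set that can match other transcripts. Without LP replicate 1, 9 of the list fell, without NP replicate 2 2 fell, and without any of the other 4 arrays none or 1 did, while the list's median stayed between -1.13 and -1.0.

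Other blood lineages gave no or single calls. None of 16 neutrophil granule genes passed, with 15 of 16 differences negative and a median of -0.57; the list's mean was -0.06 on LP replicate 1, -0.59 on replicate 2 and -0.96 on replicate 3, against -0.23 to 0.31 on the NP arrays. Ltf, lactoferrin, had the lowest p, at -1.03 ± 0.29. None of 29 interferon-induced genes passed either, with 28 of 29 negative and a median of -0.55; Gbp2 differed by -1.60 ± 0.38 (limma adjusted p = 0.0539), and its probe set can match other transcripts. With LP replicate 1 left out, 7 neutrophil genes and 6 interferon-induced genes fell, a setting in which 1094 of all 18193 genes did. Among 19 macrophage and Kupffer cell genes Marco, a scavenger receptor of resident macrophages, rose: it read 8.83, 9.13 and 9.05 on the NP arrays and 10.08, 10.21 and 10.54 on the LP arrays, a rise of 1.27 ± 0.23, while 12 of 19 differences were negative. Of 22 erythroid genes 18 had negative differences, with a median of -0.31 and of -0.01 without LP replicate 1. Car1, erythrocyte carbonic anhydrase, went against them, with 8.70, 8.93 and 7.80 against 11.04, 10.37 and 10.26, a rise of 2.08 ± 0.33 (limma adjusted p = 0.0172). None of the genes of T and NK cells (15), megakaryocytes (13) or stem and progenitor cells (13) passed, and the genes with the lowest p there, Nkg7, Vwf and Ptprc, differed by -0.89 ± 0.23, -1.31 ± 0.36 and -0.78 ± 0.28.

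Endothelial markers had 4 of 25 that fell, with a median of -0.40 and 21 of 25 differences negative. Esam, an adhesion molecule of endothelial junctions, read 8.68, 8.51 and 8.68 on the NP arrays and 7.96, 7.34 and 7.37 on the LP arrays, a change of -1.07 ± 0.18 (limma adjusted p = 0.0227). Cdh5, the cadherin of those junctions, changed by -1.11 ± 0.22, with the opposite sign on the other of its 2 probe sets. Lyve1, a hyaluronan receptor of sinusoidal and lymphatic endothelium, read 10.79, 10.82 and 10.67 against 9.78, 9.67 and 9.80, a change of -1.01 ± 0.23, and Pecam1 changed by -0.80 ± 0.14. The list's mean was -0.42, -0.45 and -0.41 on the LP arrays and -0.14, 0.04 and 0.11 on the NP arrays. Fabp4, a fatty acid binding protein of fat cells and of endothelium, fell by 1.27 ± 0.18 and was the sole call of 6 adipose markers. Its probe set can match more than 1 transcript, and without such probe sets Fabp4 gave -0.05 (limma adjusted p = 0.954). None of 22 genes of stellate cells, pericytes and fibroblasts passed, with 19 negative and a median of -0.35. Of 42 collagens Col14a1 fell, at -1.0 ± 0.19, the sole call (2.38%, against 2.34% of all genes). When LP replicate 1 was left out, 5 endothelial genes fell, without NP replicate 2 1 did, and without any of the other 4 arrays none.

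Markers of tissues next to the liver were read to see whether they moved with diet. All 13 measured genes of the exocrine pancreas had positive differences, with a median of 0.32, and none passed. On the NP arrays 2 of the 13 lay above the median level, and at or below that level 72.4% of all genes had positive differences. The list's mean was 0.01, 0.35 and 0.63 on the LP arrays and -0.07 to 0.06 on the NP arrays. Cela3b, an elastase with the lowest p of the list, read 6.71 to 6.80 on the NP arrays and 6.76, 7.37 and 7.57 on the LP arrays. None of 12 skeletal muscle, 14 adrenal and kidney, 16 intestine and stomach and 9 bile duct genes passed. Their part in the results above was not tested.

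**Figure D4:**
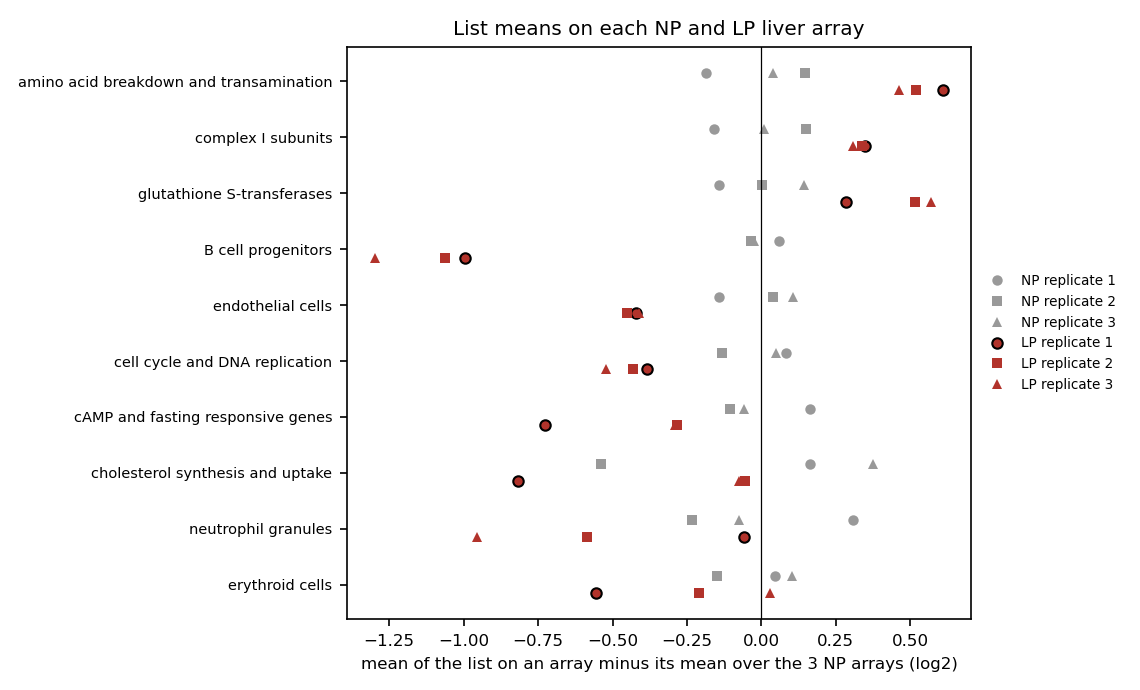
For 10 gene lists, the mean of the list on each array minus its mean over the 3 NP arrays (log2, x axis); grey symbols are NP arrays and red symbols LP arrays, with LP replicate 1 outlined. LP replicate 1 lies with the other LP arrays for complex I, B cell and endothelial genes and apart from them for cAMP-responsive genes (-0.73 against -0.28 and -0.29).

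Many of the largest and most certain changes were outside the lists. S100g, the calcium-binding protein calbindin of epithelia, read 5.78, 5.98 and 5.31 on the NP arrays and 8.28, 7.93 and 7.97 on the LP arrays. Klhl13, a substrate adaptor of a cullin ubiquitin ligase, averaged 7.63 ± 0.46 against 9.97 ± 0.03 (SD, n = 3), also without overlap. Sgk2, a kinase related to Sgk1, read 6.46, 7.17 and 6.26 against 9.55, 8.67 and 8.40. The 3 genes rose by 2.37 ± 0.41, 2.34 ± 0.36 and 2.24 ± 0.46, so that Sgk2 and Sgk1 moved in opposite directions. Gchfr, a feedback regulator of tetrahydrobiopterin synthesis, rose by 1.91 ± 0.37, Dcxr, a xylulose reductase, by 1.82 ± 0.30, and Abca6, a transporter, by 1.54 ± 0.33. Trnp1 rose by 2.10 ± 0.43, Tmem141 by 1.63 ± 0.22 and Pde6c by 1.56 ± 0.16. The probe sets of Tmem141 and Pde6c can match more than 1 transcript. The smallest p-values among rises also held Cyhr1, at 1.36 ± 0.15 a sign shared by 4 of 6 probe sets, Prpsap1, of phosphoribosyl pyrophosphate synthesis, at 0.72 ± 0.09, and Samm50, of the sorting machinery of the mitochondrial outer membrane, at 0.91 ± 0.12.

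Falls outside the lists were led in certainty by single genes of varied roles. Sox4, a transcription factor, read 9.85, 9.84 and 9.71 on the NP arrays and 8.16, 8.15 and 8.32 on the LP arrays, a change of -1.59 ± 0.18 (limma adjusted p = 0.00471), with 7 of 8 probe sets lower. Tcf4, an E protein, read 8.91, 8.23 and 8.83 against 6.75, 6.65 and 6.26, a change of -2.10 ± 0.28 with 6 of 6 probe sets lower. Bach2 changed by -2.29 ± 0.49, with 2 of 3 probe sets lower, and H2-Aa by -2.12 ± 0.33. Armcx4 changed by -1.97 ± 0.41, and Stard9, a kinesin, by -2.03 ± 0.28 with its other probe set of opposite sign. Ggps1, which makes geranylgeranyl pyrophosphate, changed by -1.25 ± 0.16 a sign shared by 2 of 4 probe sets. Fars2, the mitochondrial phenylalanyl-tRNA synthetase, changed by -1.02 ± 0.12, Eps8, an actin regulator, by -0.98 ± 0.12 and Abca8b, a lipid transporter, by -0.81 ± 0.10. Mtfr1, a regulator of mitochondrial fission, changed by -0.89 ± 0.10, with its other probe set of opposite sign.

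For some genes with several probe sets the value depended on which was read. With the mean of all probe sets of a gene 25 of the 114 named genes no longer passed, and the values of 15 of these 25 had moved by over 1.5 times. Besides Ado, Eif4g2 and Fabp4 (-0.78), the 15 were Car3 (-0.69), Bach2 (-1.47), Npat (-0.39), Sox4 (-0.45), Fosl2 (-0.64), Cdh5 (-0.54), Col14a1 (-0.55), Hibch (0.30), Cox15 (0.38), Atp5a1 (0.22), Mdh1 (0.31) and Gsto1 (0.63). A further 12 genes moved as far and still passed under that setting: Gpt at 1.40, Trnp1 at 1.08, Cyhr1 at 0.32, Samm50 at 0.58, Crem, H2-Aa at -0.89, Tcf4 at -0.91, Stard9 at -0.89, Ggps1 at -0.50, Mtfr1 at -0.42, Ebf1 at -0.79 and Fars2 at -1.62. Without probe sets that can match more than 1 transcript Klhl13 gave 1.46 and still passed, while Col14a1 gave -0.41 and did not. Under that setting 102 of the 114 named genes could be read, and 92 still passed. The rest of the 114, Cyp2f2, Gsta2 and Pde6c among them, had only probe sets of that kind.

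**Figure D5:**
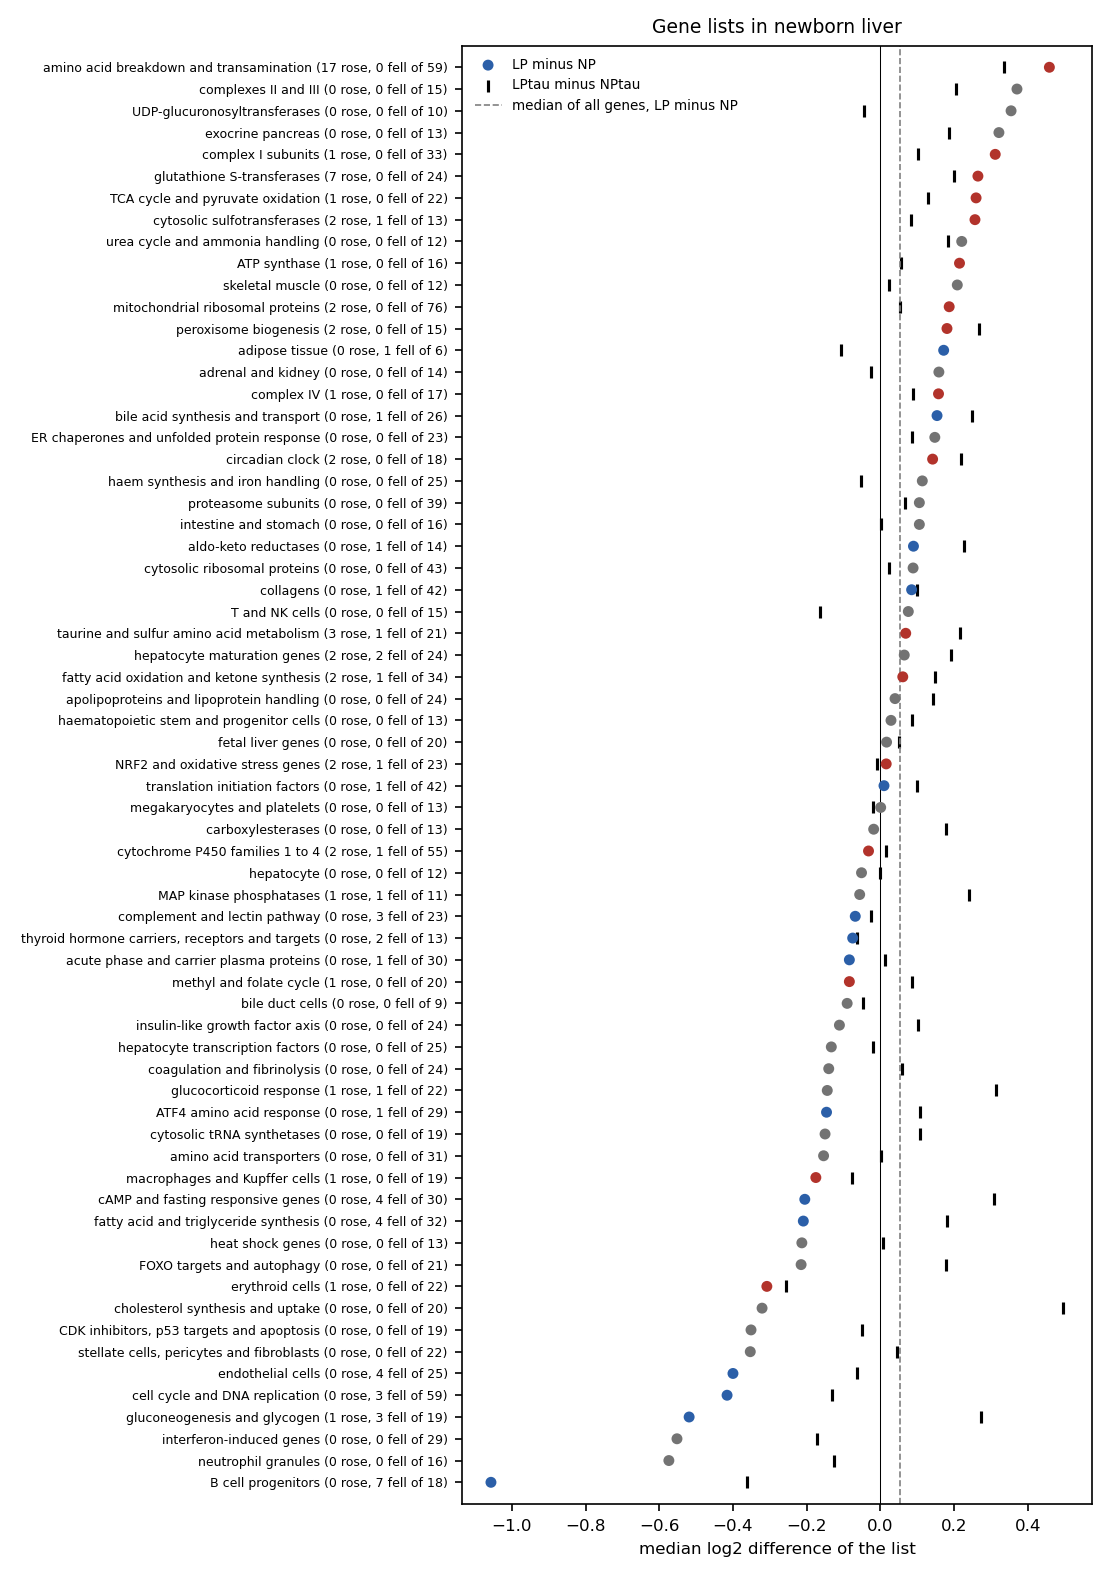
Median log2 difference (x axis) of each gene list, LP minus NP, as points; red marks lists with more genes that rose than fell, blue the reverse and grey equal numbers. Black ticks give the median LPtau minus NPtau and the dashed line the median of all genes, 0.05; the list of amino acid breakdown is at the top, at 0.46, and that of B cell precursors at the bottom, at -1.06.

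The LPtau and NPtau arrays gave a second low protein contrast that shares no array with the first, although all 12 liver arrays were normalized together. NPtau replicate 2 stood apart there: it differed from NPtau replicates 1 and 3 by a median of 0.25 and 0.24, with 892 and 923 genes more than 2-fold apart, against 0.17 and 226 genes between those 2 arrays. Values without it are given beside the results, an alternative chosen after seeing the data. By limma none of 18193 genes passed there (0.0%), with or without NPtau replicate 2, and 863 (4.74%) had an unadjusted p below 0.05. Of the 425 genes, 356 (83.8%) had the same sign in both contrasts, against 57.9% of all genes (354, or 83.3%, against 63.5% without NPtau replicate 2), and 103 (24.2%) also had an unadjusted p below 0.05 there. The median among the 202 that rose was 0.23, and among the 223 that fell -0.19, both smaller in size than without taurine. The genes were chosen for large differences without taurine, so smaller ones on other arrays do not show an effect of taurine. For amino acid breakdown 55 of 59 genes were positive, with a median of 0.34, and all 17 that rose were positive. Without NPtau replicate 2 that was 49 of 59, with a median of 0.37. B cell markers had 0 of 18 positive, with a median of -0.36, and of -0.48 without that array. Sult2a2 read 6.20, 5.01 and 4.22 on the NPtau arrays and 9.38, 9.12 and 8.03 on the LPtau arrays, again without overlap, a difference of 3.70 (limma adjusted p = 0.856). Gnmt differed by 0.78, Cth by 0.91 and Rag1 by -0.97, each with an unadjusted limma p under 0.05 and an adjusted p of 0.999.

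Other groups did not keep their direction with taurine. The median of the cholesterol list was -0.32 without and 0.50 with taurine, that of gluconeogenesis and glycogen -0.52 and 0.27, that of cAMP-responsive genes -0.21 and 0.31, and that of fatty acid synthesis -0.21 and 0.18. Without NPtau replicate 2 the medians with taurine were 0.60, 0.23, 0.30 and 0.18, in the same order. Without LP replicate 1, which stood apart, the medians without taurine were smaller, at -0.12, -0.26, -0.02 and -0.15. In the cAMP list 15 of 30 differences were then positive. Rab30 read 10.34, 7.90 and 9.94 on the NPtau arrays and 11.38, 10.34 and 11.21 on the LPtau arrays, a difference of 1.58 where it was -3.23 without taurine. The lowest of these was NPtau replicate 2, and without it the difference was 0.84. The test of the difference between both contrasts gave 4.81 ± 0.74 for Rab30 (limma adjusted p = 0.201). For Sult3a1 that difference was 2.81 ± 0.48 and for Akr1c6 3.07 ± 0.56 (limma adjusted p = 0.201 and 0.249). By this test no gene passed, 4 did without NPtau replicate 2 and 8 without LP replicate 1, and with all arrays 1540 (8.46%) had an unadjusted p below 0.05. It contains the LP and NP arrays that chose these genes, so it is not independent of their calls.

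In hindleg muscle the LP minus NP contrast, fitted on the 12 muscle arrays, called 22 genes (0.121%), none of them among the 425. Of the 425 genes, 207 (48.7%) had the same sign in muscle, and the median muscle difference was -0.06 for those that rose and -0.04 for those that fell. The liver difference minus the muscle difference passed for 365 genes (2.01%) and for 148 of the 425. That fit took the 24 arrays as independent. The labels do not say whether a liver and a muscle array came from the same pup; those of the same group and number agreed in sex in 12 of 12 cases. With replicate number, shared by all groups, as a block in the model 350 genes passed. That block does not model a shared pup, so such pairing was not tested. Complex I subunits, with a median of 0.31 in liver, had a median of -0.51 in muscle, and the TCA cycle list 0.26 and -0.67. Amino acid breakdown had 0.46 in liver and -0.10 in muscle. Without single arrays the count of 365 lay between 121 (without liver NP replicate 1) and 772 (without liver LP replicate 1). It was 197 without liver NP replicate 3, 134 and 151 without liver LP replicates 2 and 3, 177, 192 and 144 without muscle NP replicates 1, 2 and 3, and 202 and 229 without muscle LP replicates 1 and 3.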

How the data were processed

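The values are those the authors deposited: log2 signals of 45101 probe sets of a mouse Affymetrix array, summarised by RMA; the submitters' processing notes give R as version 2.7.0 and also name MAS5 without a role. Liver and muscle were normalized separately by the authors, per the series' design text. Arrays give no read depth; their number, 3 per group, limits the precision. After 64 control probe sets were set aside, 34945 probe sets had a single gene symbol in the platform annotation, 932 had several and 9160 had none; the gene IDs of 34741 were found in the RefSeq table. For each of 18193 genes the brightest probe set over the 12 liver arrays was used (9010 genes had more than 1). Array medians were close to each other, so no further scaling was done.

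limma 3.58.1 in R 4.3.3 was fitted with a mean for each diet over the 12 liver arrays, followed by eBayes and Benjamini-Hochberg adjustment over all genes; muscle was fitted likewise on its 12 arrays, and the liver minus muscle difference on all 24, taken as independent. The fit was tested on simulated data of this size. Named genes were the 20 largest rises and falls among those that passed and did not overlap, the 10 smallest p-values in each direction, every member of a list that passed, the lowest p of a list with none, and a fixed set of metabolic genes. Clone names were counted and not named. The members and lists were chosen with earlier results of these data known. The alternatives tried were other normalizations, filters, probe set rules and models, sex or replicate number in the model, and each array left out. Promoter windows are from RefSeq (GRCm38.p6).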

Additional observations from a re-analysis of the deposited data

Results flagged for a closer look

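The liver difference minus the muscle difference in LP minus NP passed for 148 of the 425 liver genes. Among the named ones whose level in NP muscle lay above the muscle median, 27 had such a difference. The values that follow compare LP minus NP differences (log2) and not levels in the tissues. The difference was higher in liver than in muscle for Gpt (2.83), Tmem141 (2.16), Klhl13 (2.04), Gstk1 (1.94), Shmt1 (1.81) and Hibch (1.55). It was also higher for Cyhr1 (1.48), Mdh1 (1.46), Samm50 (1.32), Ivd (1.31), Mrps35 (1.27) and Sod2 (1.19). The same held for Etfb (1.15), Sardh (1.14), Gcdh (1.13), Tef (1.11), Hibadh (1.08) and Ndufv2 (1.02). The difference was lower in liver for Tcf4 (-2.62), Nupr1 (-2.49), Ebf1 (-2.45), Sox4 (-2.02) and Stard9 (-1.74). So it was for Dck (-1.65), Ephx1 (-1.46), Ggps1 (-1.41) and Npat (-1.19). Ebf1 thus fell by 1.90 in liver and differed by 0.54 in muscle, and Mdh1 rose by 0.73 in liver and differed by -0.73 in muscle.

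Of 10092 probe sets with no single gene symbol, which no comparison above used, 8 passed the same limma test in LP minus NP liver. In 1 of them LP was higher, and in 7 it was lower. Without adjustment, 1711 had p below 0.05.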

How the results depend on the processing

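With 425 genes called in LP minus NP liver, the count was 315 on the 6 arrays alone (109 higher and 206 lower; 201 of them among the 425, with 38 of the 114 named genes no longer passing), 315 of 9096 genes above the median level, 421 with cyclic loess, 445 with quantile normalization, 472 with a trended robust eBayes, 357 with the mean of all probe sets, 359 without shared probe sets (those named _s, _x, _a or _f for matching several transcripts) and 556 of 45037 probe sets. Array weights raised it to 4727, and sex in the model lowered it to 244. The deviations of LP and NP liver arrays of the same number from their group means correlated at -0.03, -0.19 and -0.01. These values cannot tell whether arrays of a number shared a litter or a batch. With the replicate block 403 genes were called, 316 of them among the 425. That setting called 1 in LPtau minus NPtau and 0 in the difference between both contrasts. Leaving out single arrays gave 21 to 2013. The difference between both contrasts called 0 genes, 5 with array weights, 1 with the mean of all probe sets, and 0 to 8 with single arrays left out (8 without LP replicate 1, 4 without NPtau replicate 2). The liver minus muscle difference called 365 genes, 350 with the replicate block, 251 to 501 under the other settings and 121 to 772 with single arrays left out.

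Of the 114 named genes that rose or fell, 1 changed sign: Hibch, at -0.004 without shared probe sets. Among named genes that did not pass, that setting turned Uqcr10 to -0.577, Farsb to 0.03, Ptprc to 0.046 and Pdgfrb to 0.096; the mean of all probe sets turned Cpt1a to -0.092. Asns became 0.02 with quantile normalization, 0.021 with array weights and 0.008 with sex in the model, and Ppargc1a 0.257 with array weights. With single arrays left out, Asns ranged from -0.1 to 0.083, Ppargc1a from -0.76 to 0.295, Pck1 from -0.873 to 0.022, Cps1 from -0.096 to 0.068, Fasn from -0.35 to 0.076 and Cyp7a1 from -0.881 to 0.091. The cause was not tested. The number of arrays limits what small differences can show.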
